A study of Mus musculus with 20 samples.

Results

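The autophagy and mitophagy machinery was taken as 45 named mouse genes, out of 30340 genes and transcripts that the arrays measured, and was described by genotype and by tissue. The 45 genes were chosen by name and fall into 8 roles: the initiation complex (5 genes), the lipid kinase complex (6), membrane supply and its effectors (5), the conjugation system (11), the Atg8 proteins (5), cargo receptors (5), mitophagy genes (5) and lysosomal genes (3). All 45 were on the array, by 66 probes in all, and each gene was read from its brightest probe. The samples were total RNA from C57BL/6 mice kept free of specific pathogens. Salivary glands came from 4 Irgm1-/- mice, all female and 9 weeks old, and from 4 wild type mice, all female and 6 to 7 weeks old. The small intestine, whole duodenum, came from 3 Irgm1-/- mice (2 male and 1 female, 6 to 8 weeks old) and 3 wild type mice (all female, 6 to 8 weeks old). RNA labelled as isolated colonic macrophages came from 3 Irgm1-/- and 3 wild type mice, which by the names on the deposited files, and by genotype, sex and age in 6 of 6 cases, were the same animals as those of the small intestine. Mouse numbers follow each tissue's labels and need not name the same animal in both. The 8-week-old mice are mouse 2 in small intestine and mouse 1 among the colonic samples. The labels do not say which part of Irgm1 is deleted.

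Autophagy encloses cytoplasm in a double membrane, the autophagosome, which then fuses with a lysosome. The Ulk kinase complex starts the process, the Becn1 and Pik3c3 complex makes the phosphoinositide PI3P on the forming membrane, and Wipi proteins bind that lipid. A ubiquitin-like conjugation system attaches the Atg8 proteins (LC3 and GABARAP) to the membrane, and cargo receptors such as Sqstm1 link ubiquitinated cargo to them. Mitophagy removes mitochondria, through Pink1 and Park2 or through receptors on the mitochondrion such as Bnip3, Bnip3l and Fundc1. Irgm1 is an interferon-inducible GTPase known for its part in defence against intracellular microbes and in autophagy. Much of the control of these proteins is after transcription, which an RNA array does not measure.

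Tfeb, a transcription factor, is known to bind the CLEAR element of lysosomal and autophagy genes, whose core is the E-box CACGTG (the same on both strands). Promoter windows of 300 bases, from 250 upstream of the start to 50 downstream, were available from RefSeq (GRCm38.p6) for 37 of the 45 genes. The core was present in 6 of the 37 (16.2%): Atg3, Atg5, Atg7, Atg14, Bnip3 and Lamp1. Among all 27025 genes with a window it was present in 2187 (8.09%). Lamp1, a lysosomal membrane protein, held 4 copies, a number that 6 genes of all (0.0222%) reached. Atg3, the enzyme that conjugates the Atg8 proteins to lipid, held 2 copies. The stretches holding the copies are shown for these genes, which have most copies, and for Bnip3, which has the lowest genotype p-value in small intestine. The core is in capitals, and each stretch reads 5′ to 3′ on the gene's own strand.
Lamp1, chr8:13159088-13159160, plus strand: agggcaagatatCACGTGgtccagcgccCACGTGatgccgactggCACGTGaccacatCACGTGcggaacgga
Atg3, chr16:45158723-45158775, plus strand: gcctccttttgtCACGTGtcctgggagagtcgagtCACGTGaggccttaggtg
Bnip3, chr7:138909597-138909626, minus strand: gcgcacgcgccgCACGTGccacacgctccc
These matches describe the letters of the window, and binding was not measured.

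Signals are given as log2 values relative to the array's own 75th percentile, so 0 is the 75th percentile of that array, and a difference of 1 is a factor of 2. In salivary gland, where few probes were above background, that percentile came from the probes that all 8 arrays detected. Array brightness varied: the 75th percentile was 154.2 to 1022 intensity units on Irgm1-/- salivary gland arrays and 130.2 to 331.7 on wild type ones, 3868 to 4690 and 2322 to 3204 in small intestine, and 1466 to 1854 and 922.4 to 2137 on the colonic arrays. Of the members, 36 were measured well enough to test in salivary gland, 43 in small intestine and 40 on the colonic arrays. The 9 left out in salivary gland were Ulk2, Rb1cc1, Atg2b, Atg9a, Atg4a, Atg4b, Atg10, Optn and Calcoco1. Atg4a and Calcoco1 were left out in small intestine, and Rb1cc1, Atg2b, Atg4a, Atg10 and Fundc1 on the colonic arrays. Atg4a was therefore tested in none of the 3 tissues.

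Several properties of the libraries bear on every value below. Irgm1 itself read higher on arrays labelled Irgm1-/-, by 2.64 in salivary gland (adjusted p = 0.000567, limma), 1.16 in small intestine (adjusted p = 0.0546) and 0.88 on the colonic arrays (adjusted p = 0.317), and with the deleted part unstated this probe cannot check the label, so all directions follow the labels. The label of the colonic samples was set against markers. On a scale common to all 20 arrays, the summed signal of 12 macrophage markers was 0.967 to 2.54 on Irgm1-/- colonic arrays and 1.55 to 5.72 on wild type ones. In whole salivary gland it was 8.67 to 17.6 and 5.14 to 10.9, and in whole duodenum 3.65 to 4.99 and 2.14 to 3.31. All 8 epithelial and all 6 goblet cell markers were detected on the colonic arrays, with summed goblet signal of 26.5 to 40.6 on Irgm1-/- and 18.6 to 22.7 on wild type arrays. Macrophage signal in the colonic samples thus lay below both whole tissues in Irgm1-/- mice and overlapped both in wild type mice, and these samples are called the colonic preparation from here on. Of 8 pancreatic acinar markers, 7 were lower in the Irgm1-/- preparation (adjusted p under 0.05), with summed signal of 1.37 to 1.68 on Irgm1-/- and 32.2 to 128.5 on wild type arrays. In salivary gland, 4 of 9 macrophage markers tested were higher in Irgm1-/- mice (C1qa, C1qb, C1qc and Mrc1). In such mixed samples, fewer cells of a type and less RNA per cell cannot be told apart.

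In salivary gland, 0 of the 36 members tested differed between Irgm1-/- and wild type mice after Benjamini-Hochberg adjustment over all genes (limma, threshold 0.05), where 2.25% of all 11476 genes and transcripts did. At an unadjusted p under 0.05 there were 8 of 36 members (22.2%), against 20.8% of all, 6 of them higher and 2 lower in Irgm1-/- glands. The signal ranges of the genotypes did not overlap for 3 members (Lamp2, Uvrag and Atg12), against 13.6% of all features. The members' median difference was 0.06, against 0.03 over all features, and was 0.05 and 0.06 within the 2 slides. The 95% confidence interval lay within a factor of 2 either way for 35 of 36 members (97.2%), against 78.4% of all features.

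Lamp2, which encodes a lysosomal membrane protein needed for autophagosomes to mature, had the lowest p-value of the members in salivary gland. Its signal was -0.13, -0.69, -0.63 and -0.83 in Irgm1-/- mice 1 to 4, against -1.07, -1.09, -1.07 and -1.32 in wild type mice 1 to 4. All 4 Irgm1-/- glands lay above all 4 wild type glands, and Irgm1-/- mouse 1 lay highest. The array of this mouse stood apart: it was the brightest salivary gland array, and its correlation with the other Irgm1-/- ones was 0.932. It was the highest or the lowest for 19 of 36 members (52.8%), against 65% of all features. It was also the highest for Uvrag, Atg12, Ambra1, Atg7 and Fundc1, the other members higher at an unadjusted p under 0.05. The difference was 0.57 (SE 0.16, adjusted p = 0.114, limma). A second probe of Lamp2 differed by 0.26, and without Irgm1-/- mouse 1 the difference was 0.42 (adjusted p = 0.133). Of the other lysosomal genes, Lamp1 differed by 0.11 and Tfeb by 0.11 in salivary gland.

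The lipid kinase complex held 2 of the 8 members with a low unadjusted p. Uvrag, a Becn1 partner that acts in autophagosome and endosome maturation, had -3.45, -3.57, -4.07 and -3.83 in Irgm1-/- glands, against -4.12, -4.19, -4.33 and -4.20 in wild type glands. These groups did not overlap, and the difference was 0.48 (SE 0.15, adjusted p = 0.139). The Uvrag probe was well above background on only 3 Irgm1-/- and 2 wild type arrays, so some of these values lie near background. Ambra1, a scaffold that links Becn1 to the initiation complex, had -2.71, -3.15, -2.92 and -3.03 in Irgm1-/- glands and -3.07, -3.34, -3.35 and -3.33 in wild type glands. Here the lone wild type value of -3.07 reached into the Irgm1-/- range, and the difference was 0.32 (adjusted p = 0.214). Becn1, the core subunit, differed by 0.29 (adjusted p = 0.33), and 5 of the 6 members of the complex had positive differences.

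In the conjugation system, Atg12, the ubiquitin-like protein that is joined to Atg5, had -3.65, -4.00, -3.96 and -4.08 in Irgm1-/- glands, against -4.21, -4.45, -4.17 and -4.66 in wild type glands. The groups did not overlap, and the difference was 0.45 (SE 0.15, adjusted p = 0.157). The Atg12 probe was well above background on only 3 Irgm1-/- and 2 wild type arrays, so here too some values lie near background. Atg7, the activating enzyme for Atg12 and the Atg8 proteins, differed by 0.29 (adjusted p = 0.237). A second Atg7 probe, well above background on 1 array, differed by -0.25. Atg5 differed by -0.03 and Atg16l1, which places the Atg12 and Atg5 conjugate on membranes, by 0.23, both also without passing the threshold.

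Members with negative differences in salivary gland included Wipi1, a PI3P-binding protein, and the Atg8 protein Gabarap. Wipi1 had -4.04, -3.53, -4.22 and -3.71 in Irgm1-/- glands, against -3.42, -3.59, -3.50 and -3.31 in wild type glands. The ranges overlapped by 1 Irgm1-/- gland, and the difference was -0.42 (SE 0.16, adjusted p = 0.198). Gabarap ran from 1.07 to 1.36 in Irgm1-/- glands and from 1.33 to 1.54 in wild type glands, a difference of -0.27 (adjusted p = 0.215). The other Atg8 proteins lay between -0.20 (Map1lc3a) and 0.03 (Gabarapl2), with Map1lc3b at -0.01.

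Among cargo receptors, Sqstm1 (p62) had the widest difference among the 36 members tested in salivary gland, 0.62 (adjusted p = 0.264), and the values split by slide. On slide 1, Irgm1-/- mice 1 and 2 had -0.31 and -0.59, against -1.64 and -1.73 in wild type mice 1 and 2. On slide 2, Irgm1-/- mice 3 and 4 had -1.58 and -1.54, against -1.41 and -1.72 in wild type mice 3 and 4. The difference was 1.23 within slide 1 (adjusted p = 0.0479) and 0.00 within slide 2 (adjusted p = 0.998), with 2 mice of each genotype on each slide. Lamp2 differed by 0.67 and 0.47 within slides 1 and 2. Among mitophagy genes, Fundc1, a receptor of the outer mitochondrial membrane, differed by 0.35 (adjusted p = 0.239), and the ubiquitin ligase Park2 by -0.33 (adjusted p = 0.253). The kinase Pink1 differed by 0.00 (adjusted p = 0.992), and Bnip3 and Bnip3l by -0.19 and 0.06 (adjusted p = 0.464 and 0.776). The ages of the mice differed without overlap between the genotypes, so age and genotype cannot be told apart in this tissue. The part of the higher macrophage markers in these values was not tested.

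**Figure D1:**
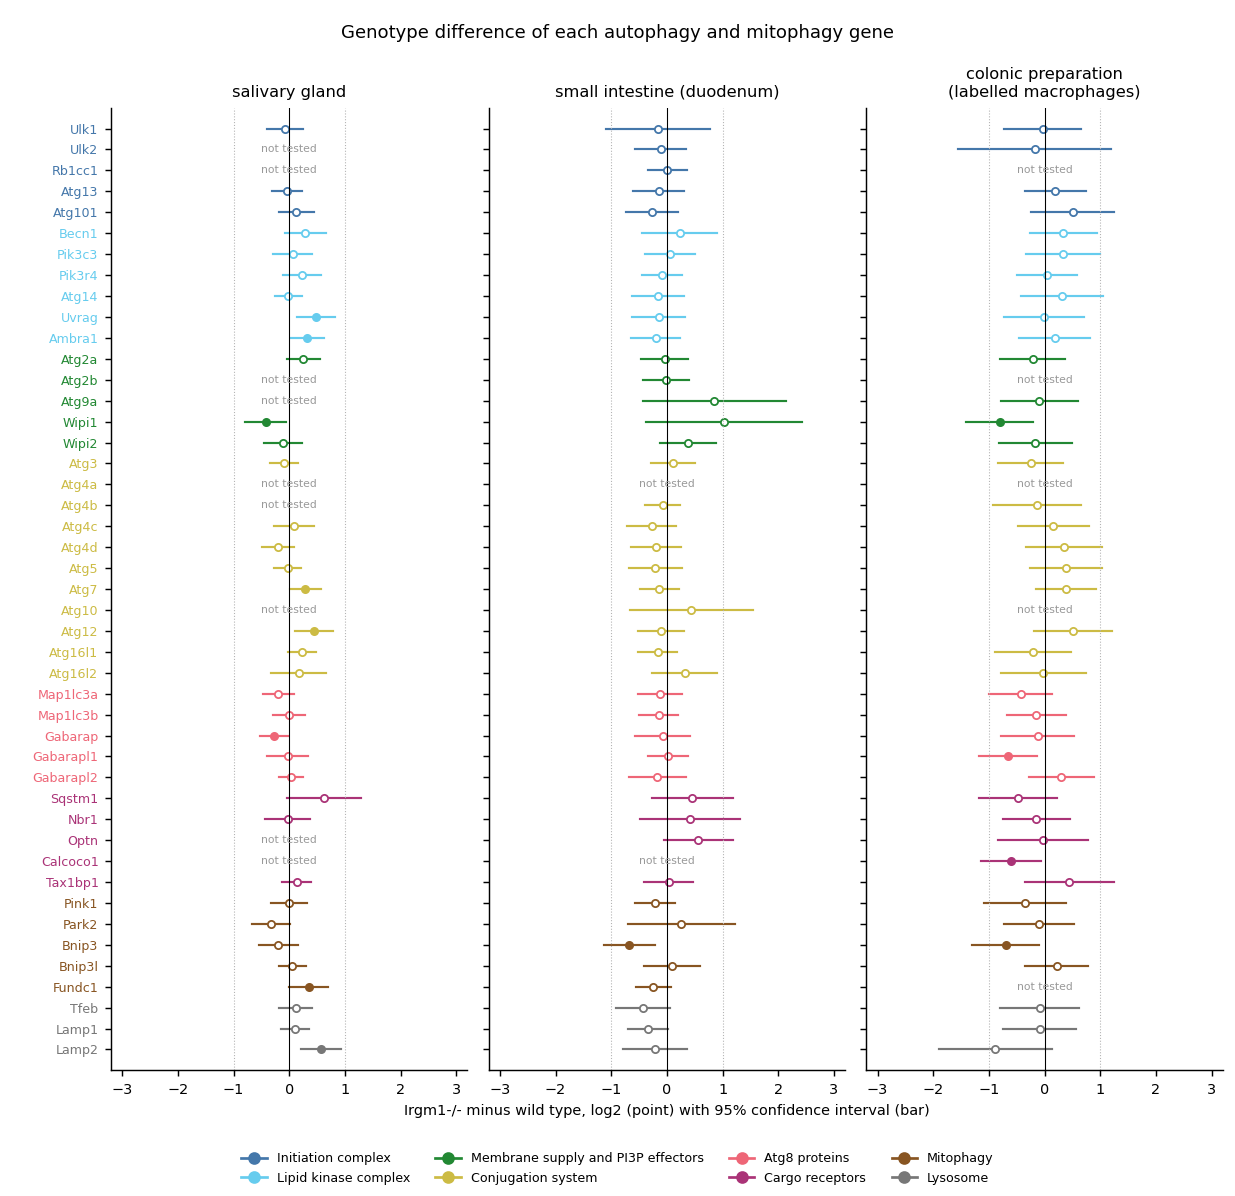
Genotype difference of each of the 45 genes, Irgm1-/- minus wild type, in log2 units on the horizontal axis, with 1 panel per tissue, genes down the page and colours for the 8 roles. Points are differences and bars are 95% confidence intervals (4 mice of each genotype in salivary gland, 3 in the other tissues); filled points have an unadjusted p under 0.05, and none passes adjustment. The intervals are narrowest in salivary gland and widest in the colonic preparation.

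In small intestine, 0 of the 43 members tested differed after adjustment (limma), where 0.144% of all 18052 features did. With the mouse number as a block, which was taken to pair these samples, 0 members and 0.00554% of all features (1 feature) passed. At an unadjusted p under 0.05 there was 1 member (2.33%), Bnip3, against 6.95% of all features. The genotypes' ranges did not overlap for 6 members, against 18.1% of all. The members' median difference was -0.10, as was that of all features (-0.10), with 16 positive and 27 negative. Within slides it was -0.18 on the slide with 1 mouse of each genotype and -0.04 on the other. The 95% interval lay within a factor of 2 for 34 of 43 members (79.1%), against 71.4% of all. Beside these values, 8 of 8 epithelial, 6 of 6 goblet and 7 of 7 T cell markers had negative differences in small intestine. Of all features there, 62.5% were negative. Positive differences were found in 8 of 11 macrophage markers, against 37.5% of all features, and 0 of all these markers passed the threshold. On the scale used within this tissue, the summed epithelial signal was 318.7 to 396.9 in Irgm1-/- and 417.2 to 512.5 in wild type duodenum. On the scale common to all arrays, used for the marker sums above, it was 36.61 to 41.93 and 42.12 to 46.03. The genotypes' ranges thus lay close together on the common scale. The part of these epithelial, goblet, T cell and macrophage markers in the members' values was not tested.

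Bnip3, a mitophagy receptor whose gene is known to be induced by low oxygen, had 1.63, 1.38 and 1.90 in Irgm1-/- duodenum, against 2.13, 2.31 and 2.50 in wild type duodenum. All 3 Irgm1-/- mice lay below all 3 wild type mice. The difference was -0.68 (SE 0.19, adjusted p = 0.618), and 2 other probes differed by -0.61 and -0.20. The difference was -0.76 within the slide that held 2 mice of each genotype, and -0.41 with sex as a covariate. Every male among these mice was Irgm1-/-, so sex and genotype cannot be fully told apart in this tissue. Lamp1 had 5.45, 5.53 and 5.36 in Irgm1-/- mice and 5.98, 5.69 and 5.68 in wild type mice, again with no overlap, and a difference of -0.34 (adjusted p = 0.666). Tfeb differed by -0.42 and Lamp2 by -0.21 in small intestine, and none of the 3 lysosomal genes passed the test. Lamp2 had a second probe with a difference of 0.08. Optn, a receptor used in mitophagy and in defence against bacteria, differed by 0.56 (adjusted p = 0.666), with 0.75, 0.61 and 0.56 in Irgm1-/- mice, against -0.41, 0.57 and 0.07 in wild type mice.

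One wild type array weighed on many of these values. The array of wild type mouse 1 was the highest or the lowest of the 6 for 36 of the 42 members measured on every small intestine array (85.7%), against 70.1% of all features, and its correlation with the other wild type arrays was 0.96, where the other 5 arrays had 0.978 to 0.992. Wipi1 had -2.66, -2.58 and -2.48 in Irgm1-/- mice, against -5.03, -2.82 and -2.93 in wild type mice, where the value of -5.03 was not well above background. Its difference was 1.02 (adjusted p = 0.666) with all arrays and 0.30 (adjusted p = 0.703) without that of wild type mouse 1, and it was 0.34 within the slide that did not hold this array. Its other probes, on all 6 arrays well above background, differed by 0.52 and -0.16. Atg9a, the membrane protein of the vesicles that seed autophagosomes, was not well above background on any of the 3 wild type arrays. Only a bound on its difference of means can therefore be given, at least 1.14-fold higher in Irgm1-/- mice with all arrays. This bound holds no sampling error, and the difference did not pass the threshold. Over 20 alternatives the Atg9a difference ran from -0.59 to 1.21, with 1 change of sign. The difference of Sqstm1 was 0.45 with the array and 0.10 without it. The sign turned for 12 of the 43 members, none past the threshold either way, and the widest changes among them were in Nbr1 (0.41 with the array, -0.03 without), Atg10 (0.44 and -0.11), Becn1 (0.23 and -0.09), Ulk1 (-0.16 and 0.20) and Lamp2 (-0.21 and 0.03). Park2 moved the other way (0.25 with the array, 0.64 without). Bnip3 was -0.77 without this array (adjusted p = 0.426), and the number of members past the adjusted threshold was still 0. Ulk1, the kinase of the initiation complex, has no value on the array of Irgm1-/- mouse 1, where its spot was marked as an outlier, so it rests on 2 Irgm1-/- mice.

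**Figure D2:**
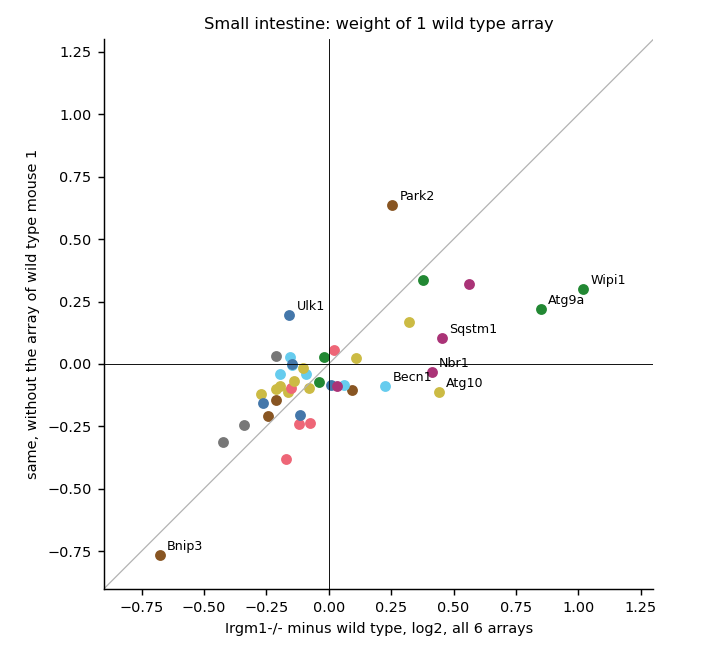
Genotype difference (Irgm1-/- minus wild type, log2) of each member in small intestine with all 6 arrays, on the horizontal axis, against the same difference without the array of wild type mouse 1, on the vertical axis. Each point is a gene coloured by role and the grey line marks equal values: Wipi1 lies at 1.02 and 0.30, while Bnip3 lies near the line at -0.68 and -0.77.

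In the colonic preparation, 0 of the 40 members tested differed after adjustment (limma), where 0.137% of all 21174 features did. With the mouse number as a block, which was taken to pair these samples, 0 members and 5.2% of all features passed. At an unadjusted p under 0.05 there were 4 members (10%), against 10.4% of all features. All 4 were lower in the Irgm1-/- preparation: Wipi1, Gabarapl1, Bnip3 and Calcoco1. As in small intestine, every male was Irgm1-/-, so sex and genotype cannot be fully told apart here. The ranges did not overlap for 6 members, against 15.2% of all features. The members' median difference was -0.09, against 0.10 over all features, with 15 positive and 25 negative. Within slides it was -0.03 on the slide with 2 mice of each genotype and -0.11 on the other. The 95% interval lay within a factor of 2 for 26 of 40 members (65%), against 49.4% of all.

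Wipi1 had -0.48, -0.21 and -0.85 in the Irgm1-/- preparation, against 0.44, 0.24 and 0.20 in the wild type one. The groups did not overlap, and the difference was -0.81 (SE 0.26, adjusted p = 0.269). Other Wipi1 probes differed by -1.02 and -0.07, so the probes did not give 1 size. Within slides the difference of the main probe was -0.69 and -1.04. Gabarapl1, an Atg8 protein of the GABARAP branch, had 2.13, 1.93 and 2.10 in the Irgm1-/- preparation, against 2.76, 2.74 and 2.63 in wild type. The gap between the groups was wider than the spread within either, and the difference was -0.66 (SE 0.23, adjusted p = 0.31).

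Bnip3 had -0.89, -0.49 and -0.77 in the Irgm1-/- preparation, against -0.22, -0.12 and 0.29 in wild type, a difference of -0.70 (SE 0.26, adjusted p = 0.365). The same animals' duodenum had a Bnip3 difference of -0.68, so these are not independent mice. Calcoco1, a receptor known from selective autophagy of the endoplasmic reticulum, had -1.09, -1.04 and -1.30 in the Irgm1-/- preparation, against -0.39, -0.60 and -0.62 in wild type, a difference of -0.61 (SE 0.24, adjusted p = 0.393). The colonic preparation was the only tissue where Calcoco1 was measured well enough to test.

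Lamp2 had 0.60, 0.75 and 0.14 in the Irgm1-/- preparation and 0.54, 2.34 and 1.25 in wild type. The wild type values were spread widely, and the difference of -0.88 (SE 0.44, adjusted p = 0.582) was -0.40 without wild type mouse 2. Atg7 had 0.39, 0.51 and 0.60 in the Irgm1-/- preparation and 0.26, 0.07 and 0.02 in wild type, with no overlap and a difference of 0.38 (adjusted p = 0.697), and a second probe differed by -0.09. Sqstm1 differed by -0.47 (adjusted p = 0.719), Pink1 by -0.35, Map1lc3b by -0.15, Becn1 by 0.34 and Atg5 by 0.39. Ulk1, Optn, Nbr1, Park2, Tfeb and Lamp1 lay between -0.15 and -0.03. The wild type preparation carried the pancreatic acinar signal given above, and 10 of 11 macrophage markers tested had negative differences (median -1.26, 0 past the threshold). Of all features on these arrays, 38.4% had negative and 61.6% positive differences. All 6 smooth muscle markers had negative differences (median -1.27) and all 8 epithelial markers positive ones (median 0.66), also with 0 past the threshold. The part of any of these in the members' values was not tested.

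**Figure D3:**
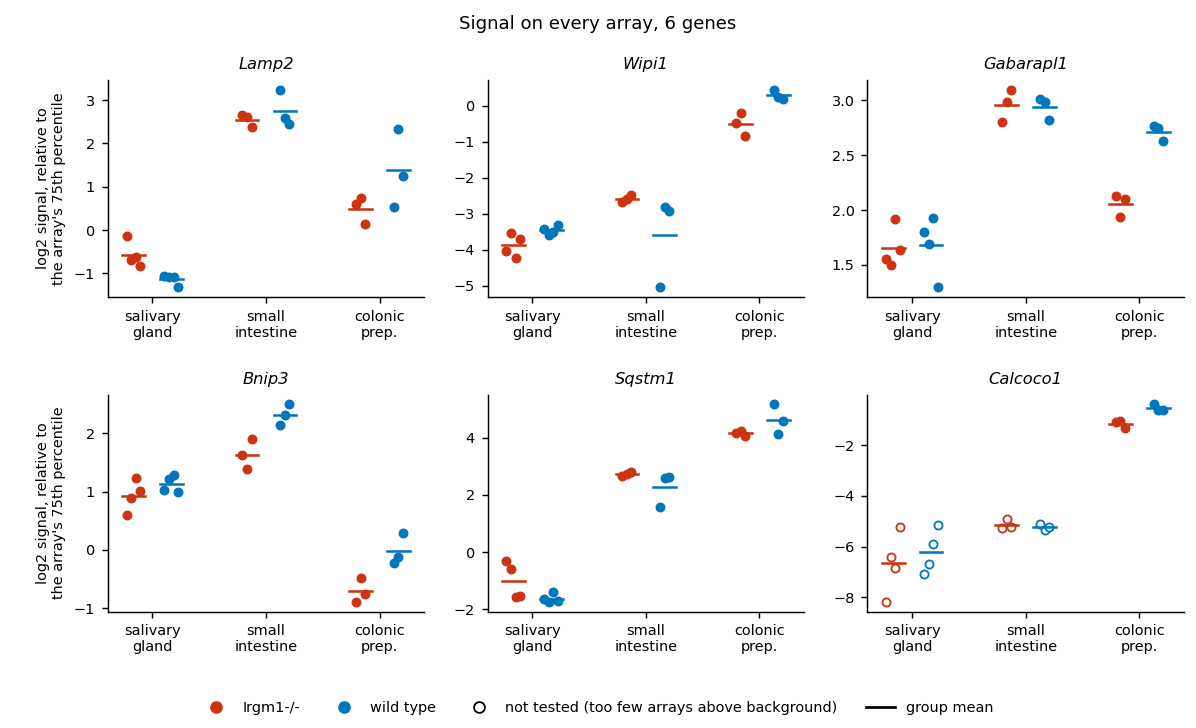
Signal of 6 members on every array, in log2 units relative to the array's 75th percentile on the vertical axis, by tissue on the horizontal axis. Each point is 1 array, red for Irgm1-/- and blue for wild type, lines are group means, and open points were not tested. Gabarapl1 and Calcoco1 show separate groups in the colonic preparation, Lamp2 in salivary gland and Bnip3 in both gut samples; levels in different tissues are on separate scales.

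Whether a genotype difference itself differed between tissues was tested in 1 fit of all 20 arrays. Between salivary gland and the colonic preparation, 1 of 35 members passed the adjusted threshold (2.86%), where 7.36% of all features did. This was Lamp2, at 0.57 in salivary gland and -0.88 in the colonic preparation, a difference between tissues of 1.45 (SE 0.43, adjusted p = 0.048, limma). It was 0.97 to 1.87 over 24 alternatives, with adjusted p of 0.00346 to 0.184, and missed the threshold in 16 of them. The lowest value, 0.97 (adjusted p = 0.121), came without wild type mouse 2 of the colonic preparation. At an unadjusted p under 0.05 there were 3 members (8.57%), against 17.3% of all features: the others were Sqstm1 (1.09, adjusted p = 0.175) and Gabarapl1 (0.63, adjusted p = 0.108).

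Between small intestine and the colonic preparation, 0 of 39 members passed, where 1.35% of all features did, and 5 (12.8%) had an unadjusted p under 0.05, against 17.4%. The lowest p was that of Wipi1, with differences of 1.02 and -0.81 in these tissues, 1.83 apart (SE 0.56, adjusted p = 0.109). The small intestine value of Wipi1 rests on the array of wild type mouse 1 described above, and these tissues came from the same animals. With slide as a random block Wipi1 passed the threshold (1.83, adjusted p = 0.0419), as it did when a gene's probes were averaged (1.09, adjusted p = 0.04998). Between salivary gland and small intestine, 0 of 36 members passed, where 0.809% of all features did, and 2 (5.56%) had an unadjusted p under 0.05, against 11.5%. These were Wipi1 (-1.44, adjusted p = 0.297) and Atg7 (0.43, adjusted p = 0.423). The Atg7 value ran from -0.11 to 0.65 over 23 alternatives. A second Atg7 probe had the opposite signs, at -0.25 in salivary gland and 0.24 in small intestine.

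**Figure D4:**
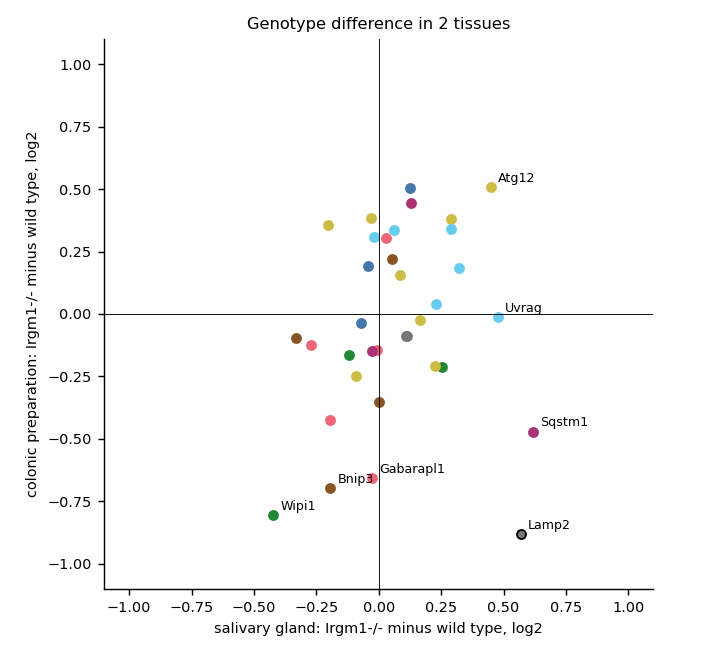
Genotype difference of each member (Irgm1-/- minus wild type, log2) in salivary gland, on the horizontal axis, and in the colonic preparation, on the vertical axis, coloured by role. Lamp2, with the black outline, lies at 0.57 and -0.88; Sqstm1 is near it, and Wipi1 and Bnip3 are negative on both axes.

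Levels of the members across tissues were compared in wild type mice, as probe signals on the scale common to the 20 arrays. Each tissue was scanned on its own day, so tissue and scan cannot be told apart. The scaling moved the median of all features by more than the usual size of a member's difference: from -1.17 to 1.39 for the colonic preparation over small intestine, from -0.59 to 1.11 for the colonic preparation over salivary gland, and from -0.89 to 0.62 for salivary gland over small intestine. On the main scale, 18 of 44 members were higher and 13 lower in the colonic preparation than in small intestine, where 57% and 24.8% of all features were. Against salivary gland, 19 of 41 were higher and 16 lower, where 56.1% and 22.7% of all features were. In salivary gland over small intestine, 12 of 43 were higher and 18 lower, where 33.5% and 36.2% of all were. Under the 4 other scalings the higher and lower members numbered 9 and 25, 4 and 36, 11 and 27, and 18 and 12 for the first pair of tissues. They numbered 12 and 23, 6 and 24, 13 and 22, and 17 and 17 for the second pair, and 14 and 10, 6 and 27, 11 and 12, and 14 and 6 for the third. These counts under other scalings show how far the scaling moves them. They are given without the shares of all features, so they are no result about the members. A direction is given for a member only where it passed the threshold in the same direction under all 5 scalings, a condition set after the values were seen.

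Under that condition 4 of 44 members were higher in the colonic preparation than in small intestine (29.3% of all features were) and 12 were lower (20.1% of all). The 4 higher ones were Park2, Atg9a, Calcoco1 and Wipi1. Park2, the ubiquitin ligase that Pink1 recruits, had a mean of 0.08 ± 0.47 in the colonic preparation and -6.33 ± 0.49 in small intestine (SD, n = 3 each), a difference of 6.41 that was 3.87 to 6.41 over the scalings. Atg9a and Calcoco1 did not rise well above background in wild type small intestine, and the lower bounds of their folds, colonic preparation over small intestine, were 43.8 and 38.9 on the main scale. Over the 5 scalings the lowest bounds made them at least 7.54-fold and at least 6.68-fold higher. Such bounds set the bright group's mean against the lowest signal well above background on each dim array, or the probe's own signal where that was higher. Wipi1 differed by 4.87 (2.33 to 4.87 over the scalings), and by 4.04 on the main scale without the outlying array of small intestine wild type mouse 1, where its probe was not well above background.

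The 12 lower members held 4 of the 5 mitophagy genes, with Park2 the exception. Pink1 had -3.02 ± 0.16 in the colonic preparation and -0.88 ± 0.12 in small intestine, a difference of -2.14 (-4.68 to -1.90). Bnip3l differed by -1.87 and Bnip3 by -1.35, and Fundc1, which was not well above background in the wild type colonic preparation, was at least 4.91-fold lower under every one of the 5 scalings (10.2-fold on the main scale). The other lower members were Atg13 and Rb1cc1 of the initiation complex, Becn1 (-2.24) and Atg14 of the lipid kinase complex, Atg4d and Atg12 (-2.46) of the conjugation system, and the Atg8 genes Map1lc3b (-1.62) and Gabarapl2 (-2.85). The call of Atg12 depended on the probe. With a gene's probes averaged, Atg12 differed by -0.35 and did not pass the threshold (adjusted p = 0.186, limma).

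Against salivary gland, 6 of 41 members were higher in the colonic preparation under all 5 scalings (23.8% of all features were) and 16 were lower (22.2% of all). All 5 Atg8 genes were among the 16 lower ones: Map1lc3a (-2.46), Gabarapl2 (-2.39), Map1lc3b (-1.74), Gabarapl1 (-1.27) and Gabarap (-0.96). The same 4 mitophagy genes were lower, with Bnip3 at -3.45, Bnip3l at -2.31 and Pink1 at -2.14, and Fundc1 at least 5.35-fold lower under every scaling (9.85-fold on the main scale). Tfeb, Ulk1, Atg13, Becn1, Atg14, Atg4d and Wipi2 were also lower, by -0.50 to -1.23 on the main scale. Of these the smallest did not keep their call when 1 library was left out: Tfeb was -0.30 (adjusted p = 0.168) without wild type colonic mouse 2, and without wild type colonic mouse 3 Wipi2 was -0.36 (adjusted p = 0.166) and Becn1 -0.55 (adjusted p = 0.1). Leaving out salivary gland wild type mice 1 or 3 for Becn1, 2 or 3 for Tfeb and 3 or 4 for Wipi2 also ended these calls. So did leaving out colonic wild type mouse 2 for Becn1 and Wipi2, and mouse 3 for Tfeb. The higher members were Park2 (4.46), Atg16l1 (2.70), Atg9a and 3 of the 5 cargo receptors. Of these receptors Sqstm1 had 2.22 ± 0.43 in the colonic preparation (n = 3) and -1.73 ± 0.15 in salivary gland (n = 4), a difference of 3.95 (2.25 to 3.95 over the scalings). Calcoco1, Optn and Atg9a were not well above background on a wild type salivary gland array, and have only a bound. For Atg9a it was at least 1.18-fold higher under every scaling (3.82-fold on the main scale). For Calcoco1 and Optn it was 3.25-fold and 2.59-fold on the main scale, and fell under 1 with another scaling, so no fold is given for either over all 5 scalings.

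In salivary gland over small intestine, 5 of 43 members were higher under all 5 scalings (17.4% of all features were) and 5 were lower (19% of all). The higher members were Wipi1 (3.43, and 2.60 without small intestine wild type mouse 1), Bnip3 (2.09), Map1lc3a (2.09), Gabarapl1 (2.02) and Park2 (1.95). The lower ones were Atg12 (-2.39), Atg4b (at least 1.70-fold lower under every scaling, 2.47-fold on the main scale), Becn1 (-1.61), Tax1bp1 (-1.33) and Ambra1 (-1.08). Park2 was thus highest in the colonic preparation. Salivary gland and small intestine were also apart for Park2 under all 5 scalings, but their order is less sure. Its probe was well above background on 2 of 4 wild type salivary gland arrays and 3 of 3 small intestine ones. A second Park2 probe was so on 0 arrays of either tissue, as was Atg4a. On the main scale the wild type mean of Atg4a was -6.59 in salivary gland and -10.08 in small intestine. Signal near background can thus read higher in salivary gland, so these values cannot settle that order for Park2. No direction held under all 5 scalings in any of the 3 contrasts for Lamp1, Lamp2, Atg5 or Atg7.

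The same contrasts were made in Irgm1-/- mice. Of the 16 members with a direction under all 5 scalings between the wild type colonic preparation and small intestine, 15 also had it in Irgm1-/- mice, where 90.3% of all such features did. The counts were 19 of 22 for the colonic preparation over salivary gland (87% of all such features) and 8 of 10 for salivary gland over small intestine (88.6%).

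**Figure D5:**
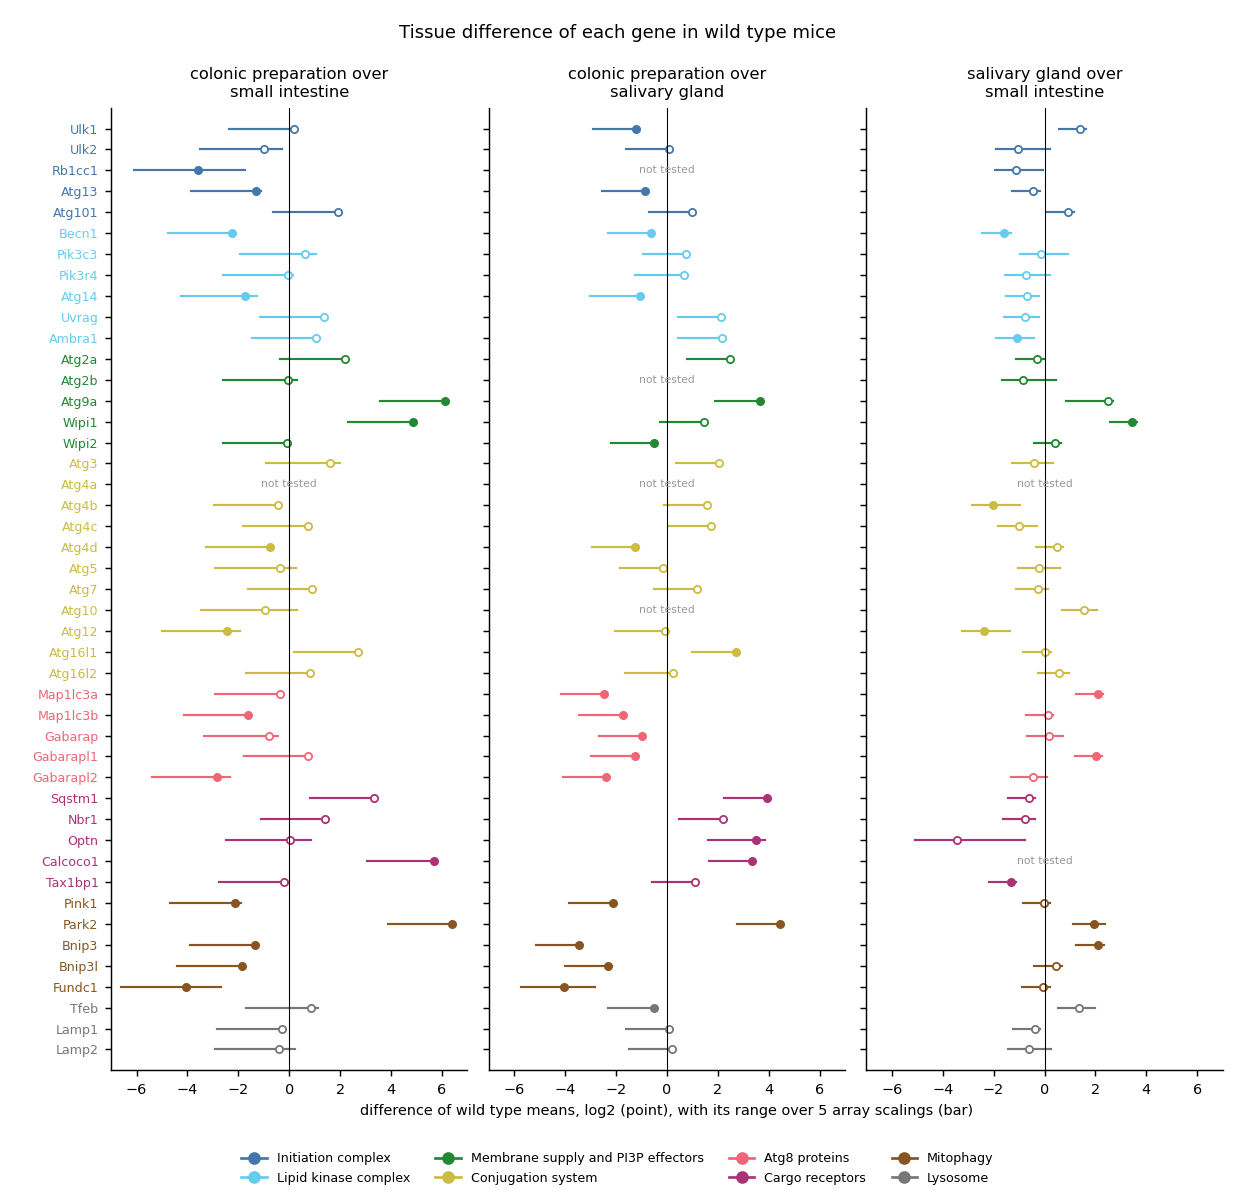
Difference of wild type means between tissues (log2, horizontal axis) for each member, with 1 panel per pair of tissues, genes down the page and colours for roles. Points are the main scale and bars run over the 5 scalings; filled points passed the threshold in 1 direction under all 5. Park2 is filled and positive in each panel, and the 5 Atg8 genes are filled and negative for the colonic preparation over salivary gland.

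Genes around the machinery were described by 4 further lists, of which 0 genes passed the adjusted threshold in any tissue (limma). Of lysosomal enzymes and proton pump subunits, 17 of 20 tested had positive differences in salivary gland, where 54.6% of all features did (median 0.23, against 0.03 over all features). At an unadjusted p under 0.05 there were 8 of these 20, where 20.8% of all features were. Ctsb, a lysosomal protease, differed by 0.72 (adjusted p = 0.0676) and Npc2, which carries cholesterol out of the lysosome, by 0.70 (adjusted p = 0.0696) there. The macrophage markers given above were higher in the same glands, and their part was not tested. In the colonic preparation 16 of 22 had negative differences, where 38.4% of all features did (median -0.23, against 0.10 over all), with Ctsa at -1.09 (adjusted p = 0.16) and Ctsl at -1.07 (adjusted p = 0.178), beside the lower macrophage markers there. In small intestine the median was -0.05, with 14 of 22 negative, where 62.5% of all features were.

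Among 21 regulators of autophagy, Bcl2l1, which restrains Becn1, differed by 0.52 in salivary gland, and Tbk1, a kinase of cargo receptors, by 0.42. Mitf, a relative of Tfeb, differed by -0.93 and Prkaa2, an AMP-activated kinase subunit, by 0.70 in the colonic preparation. Of 18 genes of autophagosome formation and fusion, the lowest adjusted p was 0.106, in salivary gland, where Tecpr1 differed by -0.47 and Zfyve1 by -0.35. In small intestine Wdr45b, a Wipi relative, differed by 0.70. Of 14 further selective autophagy genes, Ncoa4, the ferritin receptor, differed by 0.33 in salivary gland, Fkbp8 by -0.46 in small intestine and Ccpg1, a receptor for the endoplasmic reticulum, by -0.71 in the colonic preparation.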

How the data were processed

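Total RNA of 20 samples was labelled with Cy5 and read on single-colour arrays of design 026655, whose annotation build is mm9 per the file headers. Agilent Feature Extraction 11.5.1.1 read the spots, per the file headers. Each deposited array file gives intensity on a linear scale, from which that software had subtracted background, with no normalization between arrays. The other deposited columns used are flags of 0 or 1 per spot. The authors' deposited series table also gives intensity, with a normalization that no header or label states, and was used as an alternative.

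Spots marked as outliers (0.434%) were left out, and spots of a probe were averaged (39429 probes). The log2 of each value was set to the array's 75th percentile. Genes were named by RefSeq accession where possible. A gene was read from the probe brightest on average over the 20 arrays. It was tested where that probe was well above background on as many arrays as there are mice in the smaller genotype group, or more. Genotypes were compared with limma 3.58.1 (R 4.3.3, with version 1.17.8 of data.table) in each tissue, without a block, and p-values were adjusted over all features at a threshold of 0.05. Tissues, and genotype effects between tissues, were each compared in 1 fit of 20 arrays. For the tissues, the arrays were scaled over the 8448 probes detected on all of them. For the genotype effects, each array kept the scaling used within its own tissue. The fits were tested on simulated data. Figures used matplotlib 3.10.9.

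The members and lists were chosen with earlier results of these data known. The genes named are members past the threshold, otherwise those with an unadjusted p under 0.05 and at least the 8 smallest p per tissue, a fixed set of core genes, the 5 highest and 5 lowest members past the threshold between tissues, and the 2 smallest p of each other list. Others were named after their values were seen. Mouse numbers occur in both genotypes. Deviations of same-numbered mice correlated at 0.227 to 0.332 in small intestine, 0.237 to 0.63 in the colonic preparation and -0.525 to 0.445 in salivary gland. The numbers were therefore taken to pair the samples in small intestine and the colonic preparation, and not in salivary gland. In small intestine and the colonic preparation same-numbered mice also shared slide and age, so pairing cannot be told apart from these. The p-values given for single members there came from fits without this block. With the mouse number as a block, 0 members passed the threshold in each of the 3 tissues. The alternatives tried were other scalings, background correction, filters, probe rules, slide, sex, and each replicate left out. The small number of arrays limits the precision.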

Additional observations from a re-analysis of the deposited data

Results flagged for a closer look

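Dixon's test was run on 46 groups of 4 salivary gland mice. Each group was a member named for that tissue, or Irgm1, in 1 genotype. The test marked 3 of the groups, where chance marks about 1 in 20. Ambra1 was at -3.07 in wild type mouse 1, against -3.35 to -3.33 in the other 3 wild type mice. Lamp2 was at -1.32 in wild type mouse 4, against -1.09 to -1.07 in the others. Bnip3l was at 0.49 in Irgm1-/- mouse 4, against 0.72 to 0.77 in the other Irgm1-/- mice. The genotype difference of Lamp2 differed between salivary gland and the colonic preparation by 1.45 in a test of that difference (adjusted p = 0.048, limma), with 0.57 and -0.88 in these tissues.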

How the results depend on the processing

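The count of members past the threshold by genotype was 0 under 63 of 64 alternatives over the 3 tissues. The exception was 1 member, Sqstm1, within slide 1 of salivary gland (1.23, adjusted p = 0.0479). Calls under single alternatives, here and below, are given without the share of all features in the same fit. They describe that member only. Leaving out each replicate gave 0 to 0 members in each tissue. Pairing by mouse number, as a replicate block, gave 0 members in each tissue too, while the count over all features became 664, against 258, in salivary gland, 1 against 26 in small intestine and 1098 against 29 in the colonic preparation. Over all the alternatives that count ran from 117 to 664, from 0 to 36 and from 11 to 1098 in these tissues. Of the genotype differences of single members 75 of 1357 changed sign, none of them past the threshold. For the difference between salivary gland and the colonic preparation, the number of members was 0 with the 75th percentile over the other probe set, median scaling, normexp background correction, no detection filter or detection on every array, and 0 to 1 with each replicate left out. Without mouse 3 of the Irgm1-/- colonic preparation Lamp2 missed the threshold (1.27) and Atg4d, the protease that processes Atg8 proteins, passed it. Between small intestine and the colonic preparation it was 1, Wipi1, when a gene's probes were averaged (1.09, adjusted p = 0.04998) and with slide as a random block (1.83, adjusted p = 0.0419), and 0 to 0 with each replicate left out. Between tissues in wild type mice, the condition of all 5 scalings, added after the data were seen, left 16, 22 and 10 members, against 31, 35 and 30 on the main scale, and leaving out each replicate gave 30 to 33, 32 to 37 and 25 to 30. The cause of these shifts was not tested. Array brightness, and 3 or 4 mice a group, limit what could be detected.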
